A study of Homo sapiens with 2 samples.

Results

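The protein arginine methyltransferase (PRMT) genes were followed in A549 cells, a standard cell line from a human lung adenocarcinoma. The members were chosen by name, as the rows whose Entrez ID matched 1 of 8 family symbols: PRMT1, PRMT2, PRMT3, PRMT5, PRMT6, PRMT7, PRMT9 and CARM1 (also called PRMT4). All 8 were found among the 16399 genes listed. PRMT8, the remaining member of the family, was not analysed here. The PKP2 group was A549 cells overexpressing plakophilin 2 (PKP2, a desmosomal plaque protein) from a construct with an SFB tag, and the vector group was A549 cells with the vector. Each group held 1 library made from total RNA of cells at passage 5, grown in DMEM with serum. Whether the cells were 1 clone or a pool is not given in the sources used here. The series set out to look for genes downstream of PKP2. With 1 library per group, no difference has a replicate check, no test was possible, and what is compared is a pair of libraries rather than the conditions.

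PRMTs transfer methyl groups from S-adenosylmethionine (SAM) to arginine side chains of histones, RNA-binding proteins and signalling proteins. Type I enzymes (PRMT1, PRMT2, PRMT3, CARM1, PRMT6) make asymmetric dimethylarginine, type II enzymes (PRMT5, PRMT9) make symmetric dimethylarginine, and PRMT7, the type III enzyme, stops at monomethylarginine. PRMT1 and PRMT5 are the main cellular sources of the asymmetric and the symmetric mark. Published work on PKP2 in lung cancer radioresistance names PRMT1 as an enzyme that methylates the PKP2 protein, which an mRNA measurement does not address.

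The estimated counts summed to 16808842 in the PKP2 library and 16996976 in the vector library. CPM is the count per 1000000 of that total, and a gene that reached 1 CPM in either library was called expressed, which 12820 genes did. PKP2 itself was at 268 CPM (4505 counts) in the PKP2 library, against 27.3 CPM (464 counts) in the vector library, which is the direction of the labels. The keratins KRT8 (5416 and 5339 CPM) and KRT18 (3849 and 3875 CPM) were abundant in both libraries, as in an epithelial line. Other epithelial markers were much lower. CDH1 was at 55.03 CPM in the PKP2 library and 63.19 in the vector library. EPCAM was just above the expression threshold, at 1.37 and 1.47 CPM. Of the lung lineage markers, NKX2-1 had 1 count in the PKP2 library and 2 in the vector library, and SFTPB had 1 and 0. Listed lymphocyte and myeloid markers summed to 3.64 and 3.76 CPM, and fibroblast and endothelial markers to 12.4 and 9.30 CPM, most of it COL1A1. Their part in the results below was not tested.

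The 250 bases before the RefSeq start were searched in 7 members for CCAAT, a common promoter element. CCAAT or its reverse complement ATTGG was present 3 times for PRMT5 and in none of the windows of the other 6 members. Of 35116 such windows of all genes, 32.0% held at least 1 and 2.93% at least 3. The PRMT5 sites are shown because they are the ones found in the members searched. They lie inside the PRMT5 gene span of GENCODE 29, whose start is upstream of the RefSeq one, and exons annotated there (PRMT5 and a neighbour) cover 227 of the 250 bases, all 3 sites included. The 25-base stretches below are read in the direction of the gene (GRCh38.p14 in the RefSeq table, minus strand), with the box in capitals.
PRMT5, chr14:22929545-22929569: agaccctgagATTGGtggatccatg
PRMT5, chr14:22929505-22929529: cagcccgcggATTGGcaggaaaagc
PRMT5, chr14:22929397-22929421: tgactttgtgATTGGctactagtat

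Both strands of the same windows were searched for other promoter elements. Several windows are largely exon of the member or a neighbour in GENCODE 29, with 250 bases for PRMT2, 223 in each PRMT7 window and 186 for PRMT3, so the letters are not all upstream sequence. GGGCGG, the core of a GC box, occurred 5 and 2 times in the 2 CARM1 windows, 1 or 2 times for PRMT2, PRMT3, PRMT7 and PRMT9, and at least once in 42.6% of all windows. An E-box, spelled CACGTG, occurred once, in PRMT3, against 6.34% of all windows. The TATA box letters TATAAA were in none of these members' windows, against 10.7% of all windows. These matches describe letters and say nothing on whether a factor binds.

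PRMT1 was the most abundant member per length in both libraries, and the range over the 7 expressed members was wide. Levels were compared as CPM per kilobase of the principal transcript in GENCODE 29. PRMT1 (chromosome 19, 49675786 to 49689029, plus strand, GRCh38), with a principal transcript of 1393 nucleotides, was at 238 CPM per kilobase in the PKP2 library and 209 in the vector library. PRMT5 (chromosome 14, 22920511 to 22929585, minus strand) came next at 69.0 and 74.6. CARM1, a transcriptional coactivator that methylates histone H3, was at 29.8 and 27.2. PRMT2, a weakly active enzyme with an SH3 domain, was at 18.3 and 18.0, and PRMT3, a cytosolic enzyme that methylates the ribosomal protein RPS2, at 17.5 and 19.5. PRMT7 was at 8.96 and 8.20. PRMT9, known for methylating the splicing factor SF3B2, was at 2.70 and 2.90.

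Neighbours in this order differed beyond counting error, with the exception of PRMT2 and PRMT3. PRMT2 was 1.04-fold above PRMT3 in the PKP2 library (95% counting interval 0.947 to 1.15), and PRMT3 was 1.09-fold above PRMT2 in the vector library (0.988 to 1.19). PRMT1 held 62.0% of the family's summed CPM per kilobase in the PKP2 library and 58.1% in the vector library. Type I members together held 79.0% and 76.2%, type II members 18.7% and 21.6%, and PRMT7 2.33% and 2.28%. The order of PRMT2 and PRMT3 changed with the transcript length used, and their places were the only ones that did. The shares also depended on that length. With all exons merged, PRMT1 held 42.4% in the PKP2 library and 38.5% in the vector library, and PRMT5 30.9% and 34.5%. PRMT1 was then 1.37-fold and 1.11-fold above PRMT5.

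**Figure D1:**
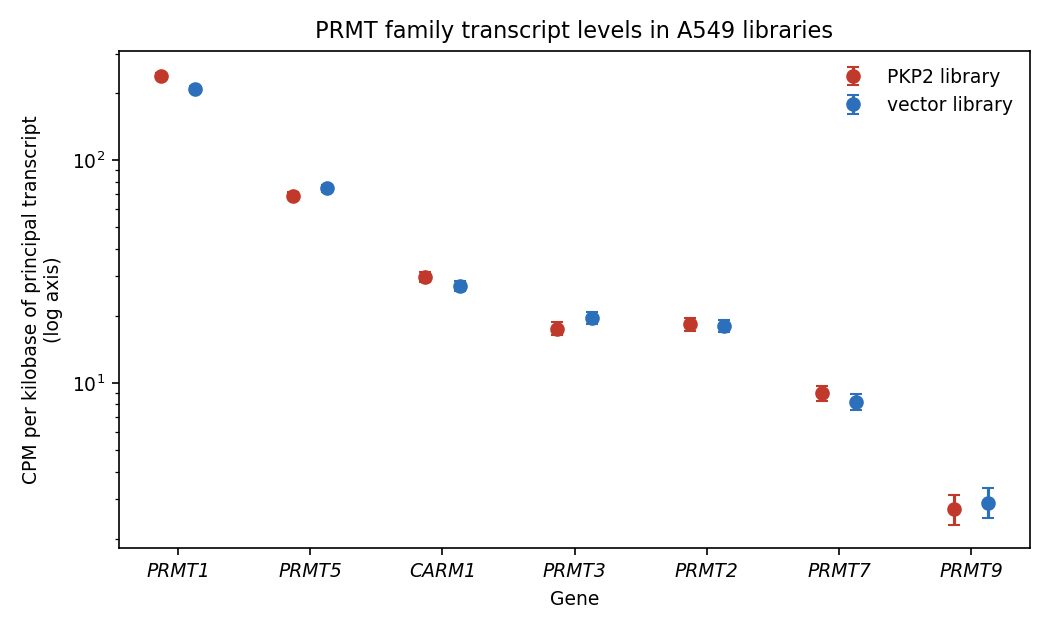
CPM per kilobase of the principal transcript (log axis) of the 7 expressed PRMT genes in the PKP2 library (red) and the vector library (blue). Points are single libraries and bars are exact 95% Poisson counting intervals. PRMT1 is highest, at 238 and 209, and PRMT9 lowest, at 2.70 and 2.90.

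PRMT6, a nuclear enzyme that methylates histone H3 at arginine 2 and is encoded by 1 exon, was the member below the expression threshold. It had 0 counts in the PKP2 library, which allows up to 0.178 CPM (3 counts), and 1 count in the vector library. Both libraries are under that limit, so no fold is given. Whether the annotation used for counting held the whole PRMT6 exon is not given in the sources used here, so these counts do not show that the gene was silent.

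Between the libraries the family differed little. No member was 1.2-fold or more higher or lower on the log2(CPM + 1) scale. Over all expressed genes, 8.7% were at least 1.2-fold higher and 11.0% at least 1.2-fold lower, and at 1.5-fold the shares were 0.733% and 0.788%. Of the 7 expressed members, 4 were higher and 3 lower in the PKP2 library, against 49.7% and 50.3% of all expressed genes. The median difference in log2(CPM + 1), PKP2 minus vector, was 0.02 over the members and 0.00 over all expressed genes. Counting intervals lay above 1 for 2 members, PRMT1 and CARM1, and below 1 for 2, PRMT5 and PRMT3, against 16.3% and 19.8% of expressed genes. Such an interval covers counting error only, and abundant genes pass it with small differences. In these bulk cultures fewer expressing cells and less RNA per cell cannot be told apart.

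PRMT1 was at 332 CPM (5579 counts) in the PKP2 library and at 291 CPM (4944 counts) in the vector library. The ratio was 1.14 with a 95% counting interval of 1.10 to 1.19, and 34.3% of expressed genes differed by more in size. This was the member highest in the PKP2 library relative to vector by ratio. CARM1 was at 99.3 CPM (1669.33 counts) against 90.5 CPM (1538.39 counts), a ratio of 1.10 (1.02 to 1.18). PRMT2 was at 52.7 CPM (885 counts) against 51.8 CPM (881 counts), a ratio of 1.02 (0.924 to 1.12). No difference in PRMT2 was detectable at this depth.

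PRMT5, the catalytic subunit of the methylosome, lay on the other side. It was at 175 CPM (2937 counts) in the PKP2 library and at 189 CPM (3208 counts) in the vector library, 1.08-fold lower (1.03 to 1.14). PRMT9, the other type II enzyme, was at 9.53 CPM (160.21 counts) against 10.2 CPM (173.67 counts), with a ratio of 0.933 (0.745 to 1.16). Summed over both, type II counts had a ratio of 0.926 (0.882 to 0.973), nearly all of it PRMT5. The summed counts of the 5 type I genes had a ratio of 1.09 (1.06 to 1.13), and those of the family without PRMT1 0.983 (0.951 to 1.02). Most of the type I sum was PRMT1 (5579 of 8914.33 counts in the PKP2 library), and PRMT3, also type I, had a ratio of 0.896.

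PRMT3 was at 46.5 CPM (781 counts) in the PKP2 library and at 51.8 CPM (881 counts) in the vector library, 1.12-fold lower (1.01 to 1.23). PRMT7 was at 38.0 CPM (638.33 counts) against 34.7 CPM (590.51 counts), with a ratio of 1.09 (0.975 to 1.22) that includes 1.

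**Figure D2:**
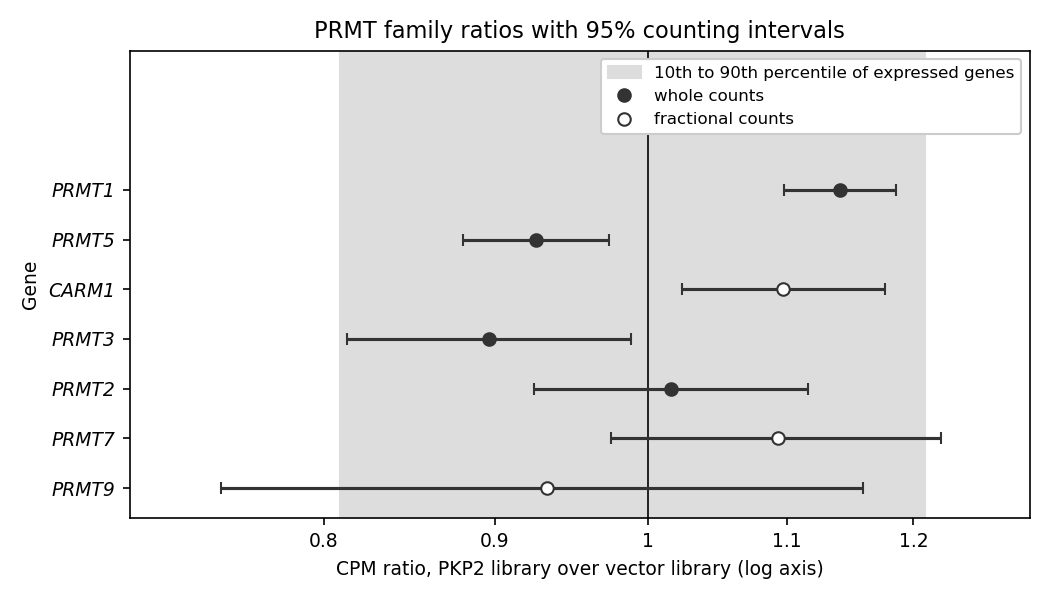
CPM ratio of the PKP2 library over the vector library (log axis) for the 7 expressed PRMT genes. Points are ratios of 1 library each, bars are exact 95% counting intervals, open points mark fractional counts and the grey band spans the 10th to 90th percentile of expressed genes (0.809 to 1.21). Every point lies inside the band, from 0.896 for PRMT3 to 1.14 for PRMT1.

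A ratio of 2 members within each library does not depend on how the libraries are scaled. The ratio of PRMT1 to PRMT5 per length was 3.45 in the PKP2 library and 2.80 in the vector library. The PKP2 value was 1.23-fold the vector value, with an exact conditional counting interval of 1.16 to 1.31. PRMT1 to CARM1 was 7.99 and 7.68, and the quotient of 1.04 had an interval of 0.960 to 1.13. PRMT5 to CARM1 was 2.31 and 2.74, a quotient of 0.844 (0.774 to 0.920). PRMT1 to PRMT3 was 13.6 and 10.7, a quotient of 1.27 (1.15 to 1.41). The proportion of PRMT1 to CARM1 did not differ beyond counting error, while PRMT5 was lower relative to both. PRMT3 was also lower relative to PRMT1.

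Across the transcriptome, shorter and more GC-rich transcripts were higher in the PKP2 library, and PRMT1 was the member this touched most. Genes averaging at least 5 CPM were divided into 5 equal groups by the longest transcript. The median difference was 0.13 in the group of shortest transcripts, which holds PRMT1 (1686 nucleotides), and -0.16 in the group of longest ones. After an additive length and GC trend was removed, PRMT1 lay at 0.03 in place of 0.19 on the log2 scale. PRMT5 lay at -0.19 in place of -0.11, at percentile 11.2 of genes averaging at least 5 CPM, the lowest of the expressed members. CARM1 then lay at 0.04 in place of 0.13, PRMT7 at 0.09 in place of 0.13 and PRMT2 at 0.03 in place of 0.02. PRMT3 lay at -0.06 in place of -0.16 and PRMT9 at -0.05 in place of -0.09. The PRMT1 to PRMT5 quotient was 1.16 without the trend, and that of PRMT1 to PRMT3 was 1.06. This trend was fitted on the longest transcript, which for PRMT3 (4159 nucleotides) is not the principal one (2653 nucleotides). With a trend on the principal transcript PRMT3 lay at -0.14, PRMT1 at 0.02 and PRMT5 at -0.17. The value for PRMT1 to PRMT3 thus depends on the transcript chosen. Without the trend on the longest transcript, again no member was 1.2-fold apart, against 6.36% of expressed genes higher and 6.85% lower.

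**Figure D3:**
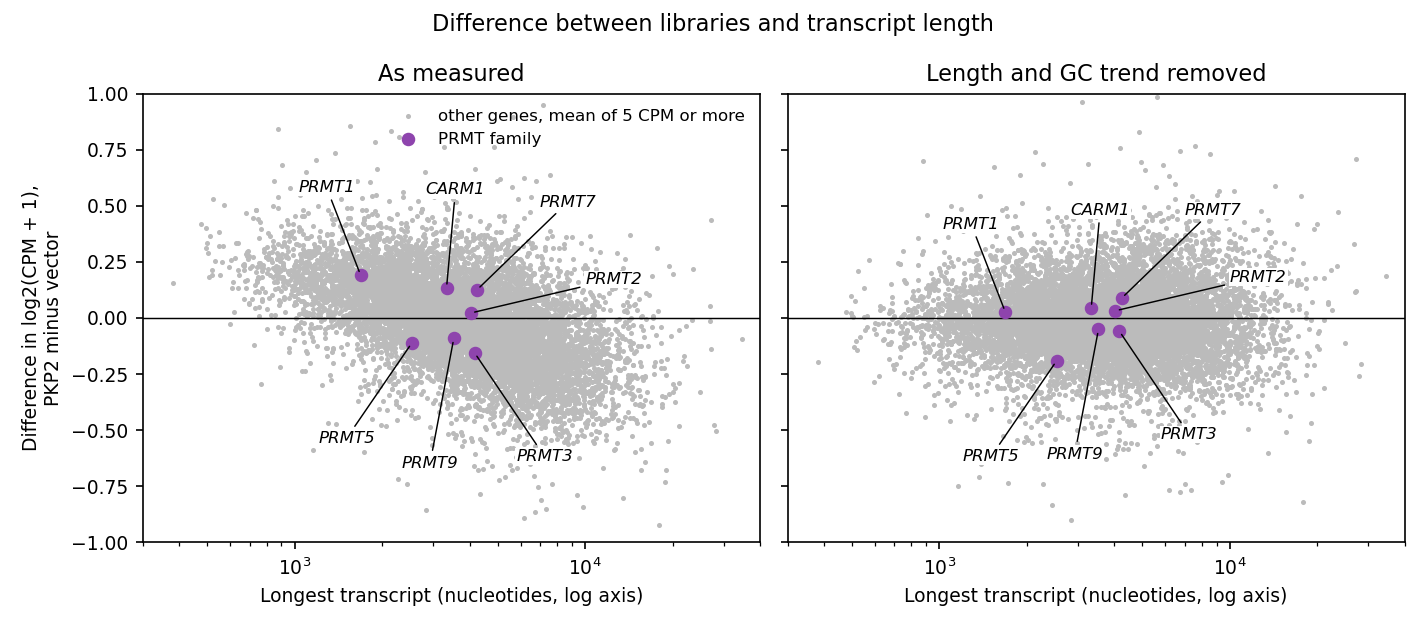
Difference in log2(CPM + 1), PKP2 minus vector, against the longest transcript (nucleotides, log axis), as measured (left) and after removal of the trend on length and GC content (right). Grey points are single genes averaging at least 5 CPM, cropped at 1 in size. PRMT1, the shortest member, lies at 0.19 on the left and 0.03 on the right, and PRMT5 at -0.11 and -0.19.

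The fractional counts of 3 members became whole numbers when the count of a gene on the opposite strand was added. CARM1 and YIPF2 meet end to end, and YIPF2 exons cover 886 nucleotides of the last CARM1 exon and none of its coding sequence. Their counts summed to 2004 in the PKP2 library and 1824 in the vector library, whole numbers within 0.005. YIPF2 was the 1 gene of 2888 with fractional counts that completed CARM1 in both libraries. SMPD3 exons cover 229 nucleotides of the last exon of PRMT7, and the counts of this pair summed to 643 and 596. PRMT9 and TMEM184C, whose gene bodies overlap with no common exon in GENCODE 29, summed to 705 and 854, and TMEM184C was 1 of 2 genes that completed PRMT9.

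How these reads were divided is not given in the sources used here, so the ratios of the sums, which do not depend on it, are given as well. The sum of CARM1 and YIPF2 had a ratio of 1.11 (1.04 to 1.18) and that of PRMT7 and SMPD3 1.09 (0.974 to 1.22), both close to the values of the member alone. The sum of PRMT9 and TMEM184C had a ratio of 0.835 (0.754 to 0.923), with TMEM184C alone at 0.810 (0.723 to 0.908). PRMT1 overlaps ADM5 on the same strand (122 and 129 counts), outside its principal transcript. PRMT5 shares 911 nucleotides of its principal transcript with PRMT5-AS1, an antisense RNA not analysed here. With no strand setting given, PRMT5 reads cannot be told apart from antisense ones.

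The proteins that work with PRMTs were centred near 0. Of 10 expressed cofactor genes none was 1.2-fold higher and 2 were 1.2-fold lower (11.0% of all expressed genes were), with a median difference of -0.05. Without the trend 1 of 10 was 1.2-fold lower, against 6.85% of all expressed genes. WDR77, the obligate partner of PRMT5 in the methylosome, was at 75.1 CPM in the PKP2 library and 75.0 in the vector library, a ratio of 1.00 (0.925 to 1.08). PRMT5 relative to WDR77 was 0.925-fold (0.842 to 1.02) of its vector value. COPRS, a nuclear PRMT5 adaptor, was at 68.4 against 60.5 CPM, a ratio of 1.13 (1.04 to 1.23), and at -0.04 in place of 0.17 without the trend. NCOA2 and NCOA3, steroid receptor coactivators that recruit CARM1, were the 2 lower genes. NCOA2 was at 42.8 against 63.2 CPM, 1.48-fold lower (1.34 to 1.63), and at -0.39 in place of -0.55 without the trend. NCOA3 (fractional count) was at 258 against 342 CPM, 1.33-fold lower (1.28 to 1.38), and at -0.24 in place of -0.41, which is under 1.2-fold. NCOA1, the remaining member of that coactivator family, was at 37.5 against 42.3 CPM, 1.13-fold lower (1.01 to 1.26), and at -0.03 in place of -0.17.

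Enzymes that supply SAM and clear its products did not differ by 1.2-fold in any of 16 expressed cases as measured. Of all expressed genes, 8.7% were higher and 11.0% lower by that much. Intervals lay above 1 for 2 of these enzymes and below 1 for 5, against 16.3% and 19.8% of all expressed genes. Without the trend 1 of the 16, MTAP, was 1.2-fold higher, against 6.36% of all expressed genes. AMD1, which makes decarboxylated SAM for polyamine synthesis, was 1.18-fold lower (1.12 to 1.25), and at -0.129 in place of -0.235 without the trend. MTAP removes methylthioadenosine, a metabolite that inhibits PRMT5. It was at 7.73 CPM (130 counts) against 6.65 CPM (113 counts), a ratio of 1.16 (0.897 to 1.51), and at 0.37 in place of 0.19 without the trend. The arginine methyltransferases outside the family that were measured, METTL23 and NDUFAF7, had ratios of 1.12 (1.01 to 1.24) and 0.951 (0.828 to 1.09). Without the trend METTL23 lay at -0.01 in place of 0.16 and NDUFAF7 at -0.05 in place of -0.07.

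Substrate transcripts are given by group, and differences between the groups were not tested. Many of these genes are abundant, so their intervals can exclude 1 at small differences. The intervals were also computed with the trend left in. Shares of intervals beside those of all expressed genes are therefore not read as group shifts. Of 11 CARM1 substrates 2 were 1.2-fold lower, against 11.0% of all expressed genes, and none higher. Their intervals were below 1 for 6, against 19.8% of all expressed genes, and above 1 for 1. The median was -0.19, or -0.07 without the trend, and none was then 1.2-fold lower. The histone methyltransferase KMT2D was 1.27-fold lower (1.199 to 1.34) and the acetyltransferase EP300 1.25-fold lower (1.17 to 1.34). Without the trend KMT2D lay at -0.21 in place of -0.34 and EP300 at -0.20 in place of -0.32, both under 1.2-fold. Of 13 substrates of symmetric dimethylation none was 1.2-fold apart as measured, 6 had intervals above 1, against 16.3% of all expressed genes, and none below. The median was 0.06, or 0.04 without the trend. The Sm core proteins SNRPB and SNRPD1, which PRMT5 methylates before spliceosome assembly, had ratios of 1.17 (1.13 to 1.204) and 1.17 (1.09 to 1.26). Without the trend SNRPB lay at 0.01 in place of 0.22, and SNRPD1 at 0.32 in place of 0.22, which is past 1.2-fold.

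Of 22 substrates of PRMT1 and other type I enzymes, 1 was 1.2-fold higher and 1 lower, against 8.7% and 11.0% of all expressed genes. The higher one was PKP2, the overexpressed gene, and the lower one EGFR, at 144 against 259 CPM. EGFR was 1.80-fold lower (1.71 to 1.89), and at -0.70 in place of -0.84 without the trend. Of all expressed genes, 0.788% were at least 1.5-fold lower. Intervals were above 1 for 9, PKP2 among them, and below 1 for 6, against 16.3% and 19.8% of all expressed genes. The median, with PKP2 included, was 0.01, or 0.06 without the trend. PABPN1 (fractional count), a poly(A)-binding protein, had a ratio of 1.19 (1.12 to 1.26).

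Of 9 expressed readers of methylarginine none was 1.2-fold apart, against 8.7% of all expressed genes higher and 11.0% lower. The median of the readers was 0.04, or 0.007 without the trend. SND1, a Tudor domain protein, had a ratio of 1.08 (1.03 to 1.13). TDRD3 and TDRKH (fractional count) differed by more in size, with ratios of 0.878 (0.701 to 1.10) and 0.920 (0.795 to 1.07). Of 6 expressed genes for deimination, demethylation and free dimethylarginine, 1 was 1.2-fold lower, against 11.0% of all expressed genes. This was PADI2, which converts arginine to citrulline, at 9.88 CPM (166 counts) against 14.8 CPM (252 counts), 1.501-fold lower (1.23 to 1.84). Its difference was -0.54, and -0.56 without the trend.

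**Figure D4:**
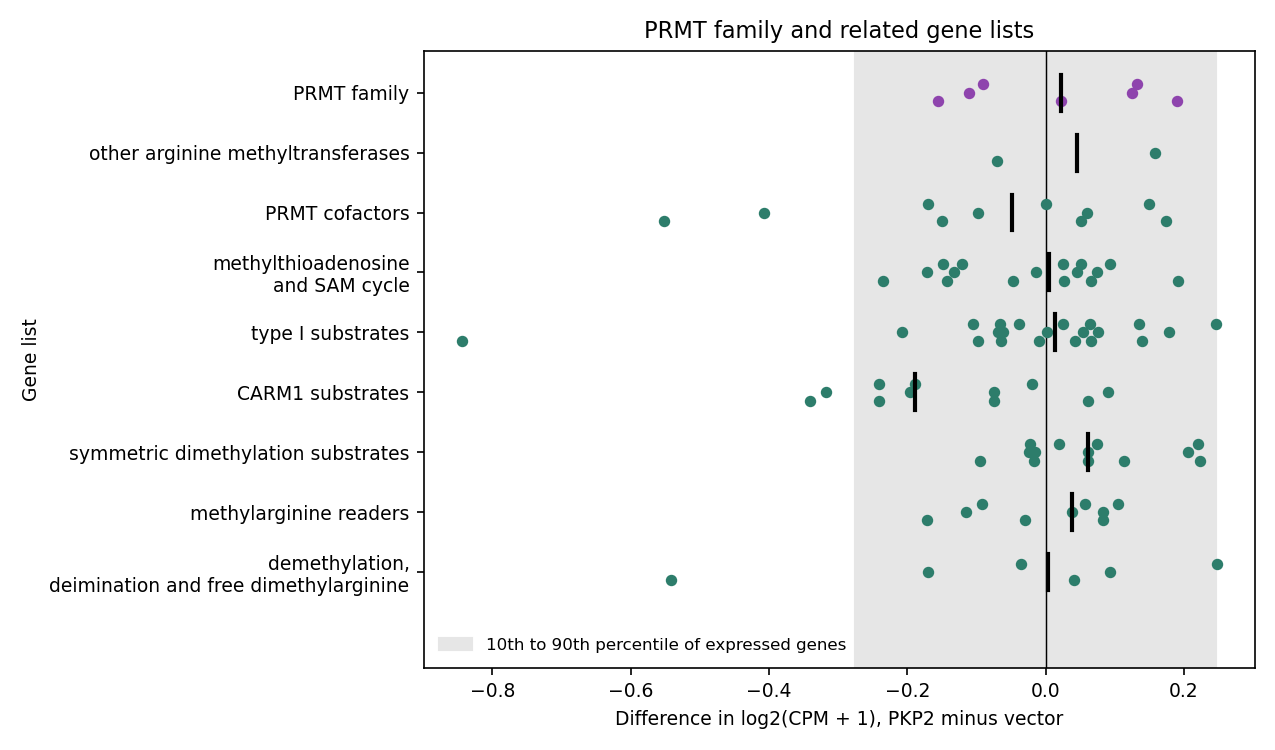
Difference in log2(CPM + 1), PKP2 minus vector, of the expressed genes of each list. Points are single genes, black bars the list medians and the grey band the 10th to 90th percentile of expressed genes (-0.28 to 0.25). PKP2, at 3.25, is off the axis. The PRMT family, in purple, lies inside the band, and EGFR, NCOA2 and PADI2 lie to its left.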

How the data were processed

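RNA sequencing of 2 A549 libraries, 1 per group, was analysed. The authors deposited estimated counts for each Entrez ID, which are not set to a common depth. Per the submitters' processing notes, HISAT2 2.0.4, Bowtie2, RSEM 1.2.12 and GRCh38.p12 were used, whereas annotation, strand setting and read layout are unstated there and in the labels.

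CPM, its ratio with exact 95% Clopper-Pearson counting intervals from counts rounded to whole numbers, and differences of log2(CPM + 1) were computed in Python 3.11.15 with scipy 1.17.1. Symbols came from RefSeq (GRCh38.p14), matching 16183 of 16399 IDs. Coordinates and lengths came from GENCODE 29, with the principal transcript taken as the lowest-numbered APPRIS class and the longest of ties. The trend was an additive lowess fit (span 0.3, statsmodels 0.14.6) on length and GC content over 10803 genes, with lengths found for 98.9% of expressed genes. The calculation was tested on simulated data. Named genes were all members, PKP2, PRMT8, WDR77, MTAP, NCOA1, cell type markers and overlapping genes. From each other list came some or all of the 3 with the largest differences at a mean of 5 CPM or more. Members and lists were chosen with earlier results of these data known. Intervals and floors cover counting error only. Alternatives were pseudocounts, scaling, filters, trend and transcript length. The promoter of 1 member, PRMT1, is not reported here.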

Additional observations from a re-analysis of the deposited data

How the results depend on the processing

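Of 157 recomputed values over all results and alternatives, 151 stayed within counting error or within 1.5 times the count, 6 moved and none reversed a value past counting error. The 6 moves all came from the trend or the transcript length. Many of the other alternatives could hardly move a value, so the 151 are little evidence of stability. The scaling shifts, for example, were -0.0061 and -0.0074 on the log2 scale. Removing the trend on length and GC content put the PRMT1 difference at 0.026 and that of PRMT5 at -0.191. With the trend taken on the principal transcript, an alternative chosen after seeing the data, PRMT1 was at 0.022, PRMT5 at -0.17, PRMT3 at -0.14 and PRMT2 at -0.04. The family median ranged from -0.03 to 0.03, so its sign is not settled. Summing PRMT9 with TMEM184C, also chosen afterwards, gave -0.26 in place of -0.09. In the order of levels, 5 of 7 members kept their place with all exons merged (PKP2 library), with the longest transcript and with the coding length (both in the vector library). No paired analysis was possible because each group has 1 library. No replicate could be left out, and PRMT6 and PRMT9 are limited by depth.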
